A study of Mus musculus with 10 samples.

Results

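The receptors described here are 10 genes of the TNF receptor superfamily, of 50600 genes in each library file, in mouse embryonic fibroblasts (MEFs) during reprogramming toward pluripotency. They are Tnfrsf22, Tnfrsf23, Tnfrsf26, Tnfrsf10b, Tnfrsf12a, Tnfrsf1a, Tnfrsf1b, Tnfrsf11b, Tnfrsf21 and Fas. The genes were taken by name, and the names were chosen by the levels and arm differences of these libraries, which were already known, so the differences between the arms are given for them as a description with no p-value. MEFs came from E13.5 embryos of strain CBA/CaJ X C57BL/6J and, per the study's methods, carried an Oct4-GFP reporter. All groups received OKS, which stands for Oct4, Klf4 and Sox2, by retrovirus made in PlatE cells and were then kept in iCD1 medium. The OKS + DsRed arm (the control, with a red fluorescent protein) and the OKS + FoxO6 arm (with the forkhead transcription factor FoxO6 added) were each sampled at day 0 and again at days 1, 3, 5 and 7, which gave 10 libraries, a single one for each arm on each day. There were no replicates, and nothing in the sources used here says whether the samples of 1 arm were taken from separately infected cultures, so that p-values measure only the spread between these libraries. The retroviral FoxO6 is not limited to a cell type, and bulk RNA cannot tell fewer cells of a type from less RNA per cell.

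Receptors of this superfamily bind trimeric ligands of the TNF family at the cell surface. Death receptors carry an intracellular death domain that recruits the adaptors FADD or TRADD and can activate caspase-8, while the same receptors and the members without a death domain can also signal through TRAF proteins to NF-kB. Decoy receptors bind ligand without a working death domain. In the mouse, Tnfrsf10b is the death receptor for TRAIL (encoded by Tnfsf10), and Tnfrsf22 and Tnfrsf23 encode decoy receptors for TRAIL. Fibroblasts are known to express several of these receptors.

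Library totals were between 1208379 and 2225750 expected counts (the read numbers that RSEM assigns to a gene), with a median of 1601151, so a gene of low expression rested on few reads. The transcript of the added factor followed the labels: Foxo6 was between 0.61 and 2.29 TPM (transcript abundance corrected for gene length and library size) in the OKS + DsRed libraries and between 762 and 1356 TPM in the OKS + FoxO6 libraries, where it stood at 1017 TPM already at day 0. Fibroblast markers were present in every library, with summed levels of 2294 to 7551 TPM in OKS + DsRed and 2567 to 6452 TPM in OKS + FoxO6. Of these 8 markers, Pdgfra, Postn and Dcn passed the test over the 5 days as higher and Col3a1 as lower in OKS + FoxO6, but all 4 calls were lost without the day term (adjusted p = 0.513, 0.849, 0.199 and 0.682 in that order). Leaving out a single day also ended the call of Pdgfra (day 0, 3 or 5), Postn (day 1 or 5) and Col3a1 (day 1, 3 or 5).

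Tnfrsf22, Tnfrsf23 and Tnfrsf26 lie next to each other on the minus strand of chromosome 7 (build GRCm38). Tnfrsf26 spans chr7:143607659-143628722, Tnfrsf22 spans chr7:143634806-143649661 and Tnfrsf23 spans chr7:143665809-143685872. The coding sequences of Tnfrsf22 and Tnfrsf23 were identical at 474 of 528 aligned bases (89.8%), whereas Tnfrsf26 was 54.1% identical to Tnfrsf22 and 52.6% identical to Tnfrsf23. An aligned stretch of 100 coding bases from exons 2 and 3, taken from the GENCODE M21 annotation, is shown for Tnfrsf22 and Tnfrsf23. It was picked as the gap-free stretch where both are most alike, so it shows where reads separate these paralogs least. Bases in capitals differ from Tnfrsf22, and each range holds the intron between both exons. They lie at chr7:143643330-143644805 in Tnfrsf22 and at chr7:143679999-143681484 in Tnfrsf23.
Tnfrsf22: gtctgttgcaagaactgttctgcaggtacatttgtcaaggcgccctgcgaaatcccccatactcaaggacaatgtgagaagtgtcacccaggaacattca
Tnfrsf23: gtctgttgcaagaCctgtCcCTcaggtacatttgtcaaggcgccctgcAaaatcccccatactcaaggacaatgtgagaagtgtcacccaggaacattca

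In this stretch Tnfrsf23 differed from Tnfrsf22 at 5 bases. Over all annotated transcripts, 15.1% of the 60-base words of Tnfrsf22 also occurred in Tnfrsf23, and 24.4% occurred in some other gene. Tnfrsf26 shared no 60-base word with another gene. The mean fragment lengths behind the deposited values were 61.3 to 66.9 bases, so a share of the reads of Tnfrsf22 and Tnfrsf23 could not be placed uniquely, and the split between these paralogs is uncertain. Their sum and Tnfrsf26 do not depend on that split between them.

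Transcripts of all 3 genes of the chromosome 7 cluster were more abundant in OKS + FoxO6 than in OKS + DsRed on each of the 5 days. In the fit over the 5 days, which estimates 1 arm difference shared by the days, the fold was 3.24 for Tnfrsf22, 3.93 for Tnfrsf23 and 14.3 for Tnfrsf26. The difference was present at day 0 and remained at day 7, while the level of all 3 was lowest at day 7 in both arms.

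Tnfrsf22, a TRAIL decoy receptor, was at 33.2, 58.3, 21.1, 28.8 and 16.6 TPM in OKS + DsRed at days 0, 1, 3, 5 and 7. In OKS + FoxO6 it was at 176, 150.2, 111, 78.6 and 52.7 TPM on the same days. The OKS + FoxO6 library was higher on every day, although the level at day 7 in OKS + FoxO6 was below that of day 1 in OKS + DsRed. The ratio of the arms in reads scaled by library size (CPM with TMM factors) ranged from 2.80 (95% counting interval 2.20 to 3.61) at day 1 to 3.63 (2.78 to 4.82) at day 0. These exact conditional intervals cover counting error only and not the variation between cultures. The fitted log2 difference was 1.69 ± 0.13 (standard error), and the SD of the 5 daily differences was 0.15.

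The TPM ratio of Tnfrsf22 at day 0, 5.31, was above the read ratio of 3.63. RSEM weights a gene's length by the isoforms it assigns, and that length was 2961 bases in the OKS + DsRed library and 2245 bases in the OKS + FoxO6 library of day 0. Read ratios carry no such length.

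Tnfrsf23, the closest paralog and likewise a TRAIL decoy receptor, was at 33.3, 41.8, 31.4, 12.7 and 8.56 TPM in OKS + DsRed. With FoxO6 added it was at 180, 126, 102, 79.2 and 41.6 TPM. Every OKS + FoxO6 library was above the OKS + DsRed library of its day, with day 7 of OKS + FoxO6 close to day 1 of OKS + DsRed. Read ratios ran from 2.56 (2.001 to 3.30) at day 1 to 5.29 (3.34 to 8.72) at day 7. Over the 5 days, the fitted log2 difference was 1.97 ± 0.17, with an SD of 0.39 over the days.

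Because the paralogs share reads, their reads were also added together. The sum was 119, 177, 94, 65 and 53 reads in OKS + DsRed and 916, 524, 456, 375 and 190 reads in OKS + FoxO6. Scaled by library size, the ratio was 4.09 (3.37 to 4.99) at day 0, 2.69 (2.26 to 3.20) at day 1, 3.57 (2.86 to 4.51) at day 3, 3.75 (2.87 to 4.96) at day 5 and 4.28 (3.14 to 5.91) at day 7. The day 1 ratio lay below the others, and its interval did not reach that of day 0. The TPM of Tnfrsf22 relative to Tnfrsf23 was between 0.672 and 2.27 in OKS + DsRed and between 0.98 and 1.27 in OKS + FoxO6. This TPM ratio carries the assigned lengths. At day 3 of OKS + DsRed, where it was 0.672, both genes had 47 reads, with lengths of 3098 and 2133 bases.

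Tnfrsf26, the third gene of the cluster and a receptor without a death domain, was at 0.52, 1.3, 0.91, 0.49 and 0.34 TPM in OKS + DsRed, from 1, 3, 2, 1 and 1 reads. In OKS + FoxO6 it was at 13, 12.6, 16.1, 9.54 and 5.21 TPM, from 43, 31, 47, 29 and 14 reads. The arms did not overlap. Since 1 to 3 reads stood in the denominator, the ratios were wide, from 9.38 (2.92 to 47.9) at day 1 to 22.8 (3.88 to 922) at day 0. Its fitted log2 difference was 3.84 ± 0.37, a size that depends on the prior count given to such low counts. Tnfrsf26 passed the filter on low counts through the OKS + FoxO6 libraries alone, with 0 of 5 OKS + DsRed libraries and 5 of 5 OKS + FoxO6 libraries over its cut of 6.26 CPM.

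**Figure D1:**
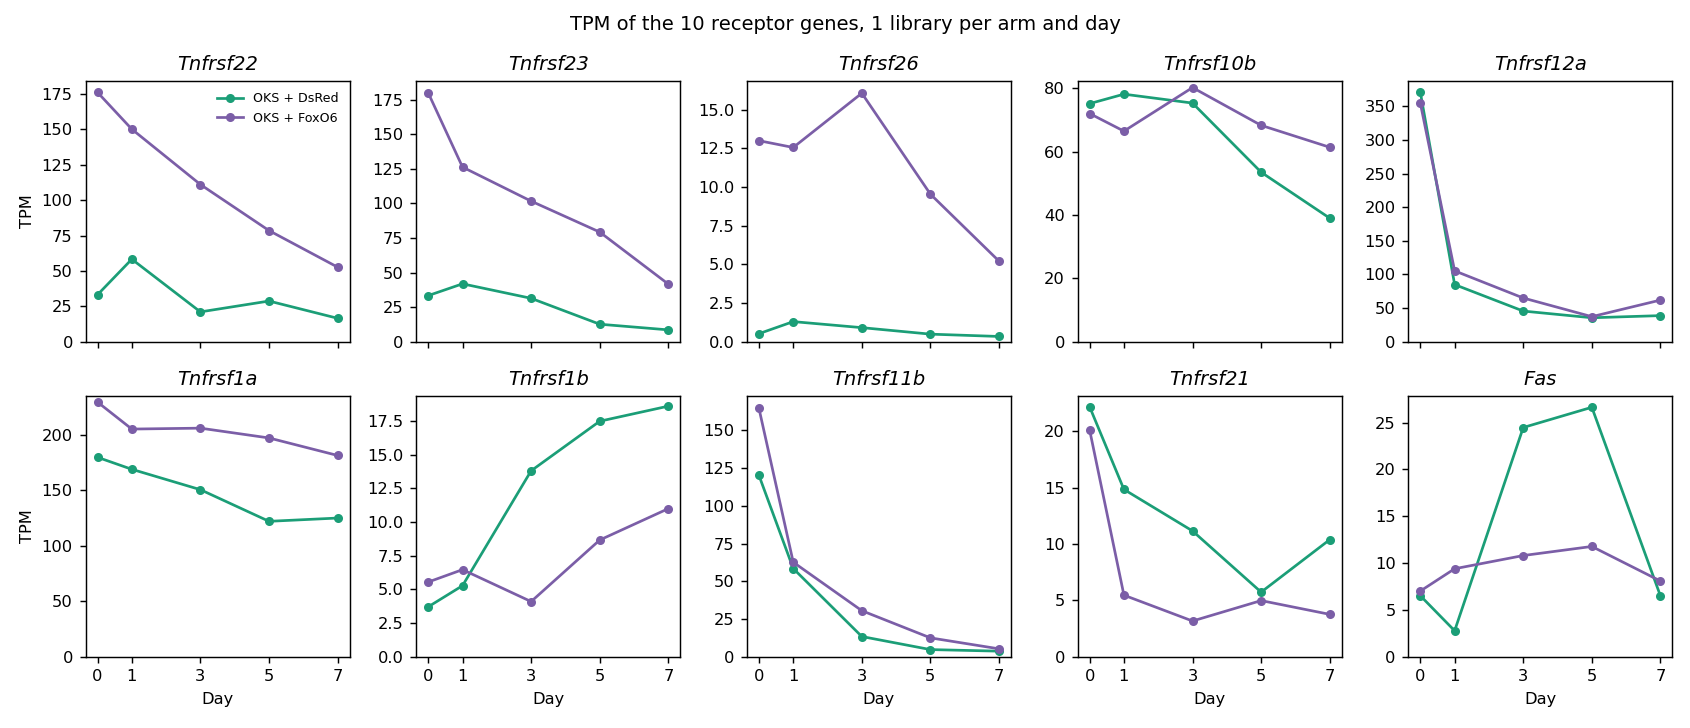
Levels of the 10 receptor genes in TPM (vertical axes, each from 0 and each with its own scale) against the day of reprogramming, with 1 point per library for OKS + DsRed (green) and OKS + FoxO6 (purple). Tnfrsf22, Tnfrsf23, Tnfrsf26, Tnfrsf1a and Tnfrsf11b were higher in OKS + FoxO6 on all 5 days, and Tnfrsf21 was lower on all 5.

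At least 2-fold differences (on the log2(TPM + 1) scale) were counted on each day and set beside the share of the 14837 genes of mean TPM of at least 1 that differed as much. At day 0, 3 of the 10 receptors were at least 2-fold higher in OKS + FoxO6, namely the 3 genes of the cluster, and 10.4% of all genes were. None of the 10 was at least 2-fold lower at day 0, against 6.32% of all genes. At day 1, the 3 genes and Fas were higher (4 of 10, with 7.97% of all genes), and Tnfrsf21 was lower (1 of 10, with 9.36%).

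At day 3, the cluster and Tnfrsf11b made up 4 higher receptors (8.18% of all genes), and Tnfrsf1b, Tnfrsf21 and Fas were the 3 lower ones (11.7%). At day 5, the cluster and Tnfrsf11b were again higher (4 of 10, with 10.2%), and Fas was lower (1 of 10, with 11.4%). At day 7, the 3 cluster genes were higher (8.28%) and Tnfrsf21 was lower (1 of 10, with 16.3%). The cluster thus accounted for 3 of the higher receptors on every day. As the receptors were chosen with these differences known, the shares are given for scale alone.

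**Figure D2:**
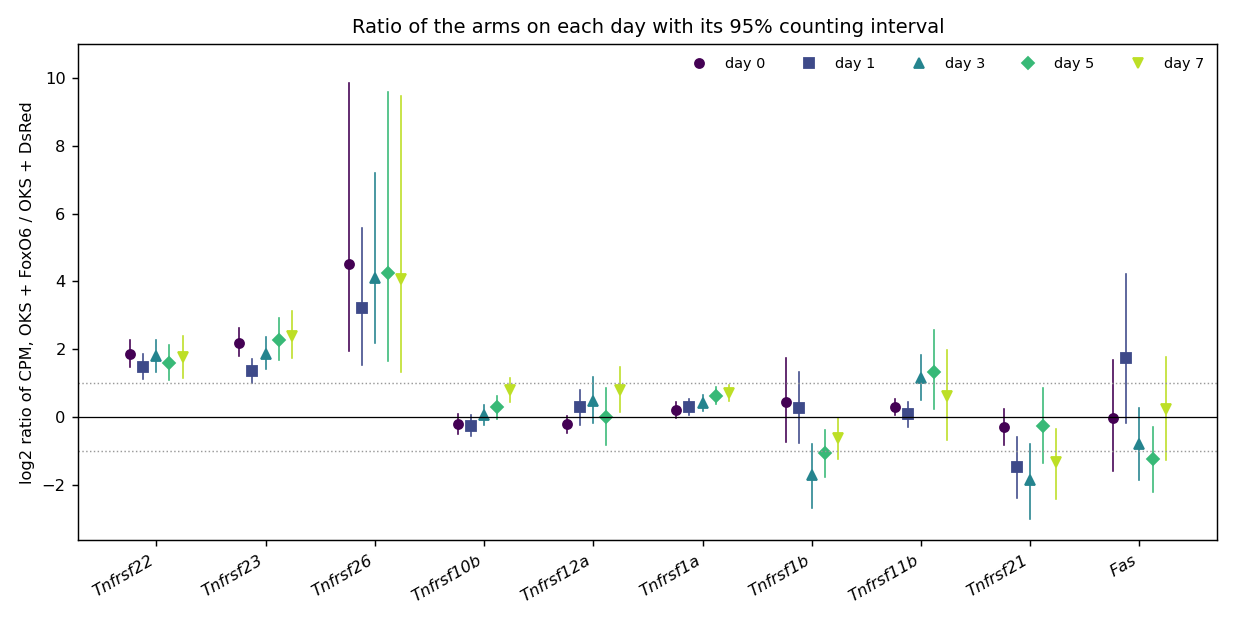
Ratio of OKS + FoxO6 to OKS + DsRed on each day (vertical axis, log2 of the ratio of TMM-scaled CPM; dotted lines mark 2-fold) for the 10 receptor genes, with bars for the 95% counting interval. The intervals of Tnfrsf22, Tnfrsf23 and Tnfrsf26 lay above 0 on all 5 days, and those of Tnfrsf26 were wide, with 1 to 3 reads in its OKS + DsRed libraries.

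Tnfrsf10b, the TRAIL death receptor, spans chr14:69767472-69784411 on the plus strand. It was at 75.2, 78.2, 75.4, 53.5 and 39.0 TPM in OKS + DsRed and at 72.1, 66.5, 80.3, 68.3 and 61.4 TPM in OKS + FoxO6. The arms were close until day 3 and overlapped over the course, with the lowest levels at days 5 and 7 of OKS + DsRed. Its read ratio was 0.868 (0.706 to 1.07) at day 0 and 1.73 (1.36 to 2.20) at day 7, the only day on which the interval left out 1. The fitted log2 difference was 0.13 ± 0.16, and it was -0.03 when day 7 was left out.

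On the TPM scale, which is per length, the cluster genes can be set against the TRAIL death receptor. The summed TPM of the 3 cluster genes divided by the TPM of Tnfrsf10b was 0.892, 1.30, 0.708, 0.783 and 0.653 in OKS + DsRed at days 0, 1, 3, 5 and 7. With FoxO6 added it was 5.12, 4.35, 2.85, 2.45 and 1.62. In TPM, the cluster transcripts thus outnumbered those of Tnfrsf10b in all 5 OKS + FoxO6 libraries and in 1 of 5 OKS + DsRed libraries. In that OKS + DsRed library, day 1, the cluster had 180 reads and Tnfrsf10b had 184. At day 0 of OKS + FoxO6 the reads were 959 and 247. Both parts of the TPM ratio lay lower at day 7 than at day 0 in OKS + FoxO6, the cluster from 369 to 99.5 TPM and Tnfrsf10b from 72.1 to 61.4 TPM. The TRAIL transcript itself, Tnfsf10, had at most 4 reads in any OKS + DsRed library and 0 reads in the OKS + FoxO6 libraries.

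**Figure D3:**
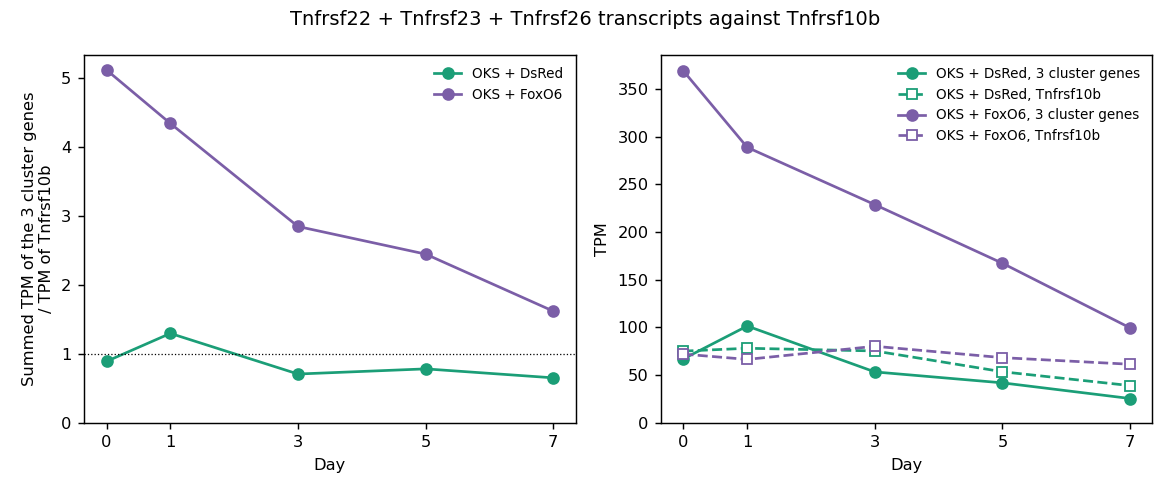
Left, summed TPM of Tnfrsf22, Tnfrsf23 and Tnfrsf26 divided by the TPM of Tnfrsf10b in each library by day, with a dotted line at 1. Right, the TPM of the 3 cluster genes (filled circles) and of Tnfrsf10b (open squares), where the ratio of 5.12 at day 0 of OKS + FoxO6 came from 369 TPM against 72.1 TPM.

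Tnfrsf1a, the TNF receptor with a death domain (chr6:125349362-125362484, plus strand), was the most abundant of the 10 receptors, with a mean of 176 TPM. It was at 180, 169, 150.4, 122 and 125 TPM in OKS + DsRed and at 229, 205, 206, 197 and 181 TPM in OKS + FoxO6. In TPM, every OKS + FoxO6 library was above every OKS + DsRed library, by a small margin at the ends of the range. In CPM with TMM factors the arms overlapped. Day 0 of OKS + DsRed was at 215.1, above days 1, 3 and 5 of OKS + FoxO6 (213.6, 212.2 and 201.1). The read ratio went from 1.16 (0.991 to 1.35) at day 0 to 1.64 (1.39 to 1.94) at day 7, and the interval left out 1 on 4 of 5 days. Over the 5 days, the fitted log2 difference was 0.45 ± 0.12, a 1.37-fold difference.

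Fas, the death receptor for Fas ligand (chr19:34290666-34327772, plus strand), was at 6.52, 2.78, 24.5, 26.6 and 6.5 TPM in OKS + DsRed, from 3 to 26 reads. In OKS + FoxO6 it was at 7.02, 9.4, 10.8, 11.8 and 8.09 TPM, from 9 to 17 reads. Levels in OKS + DsRed were highest at days 3 and 5, and those in OKS + FoxO6 stayed within a narrower range. At this depth the read ratio left out 1 only at day 5, at 0.425 (0.216 to 0.813), while at day 3 it was 0.581 (0.275 to 1.21) and at day 1 it was 3.33 (0.879 to 18.6). Its fitted log2 difference was -0.26 ± 0.40, within its error.

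Tnfrsf21, also called death receptor 6 (chr17:43016555-43089189, plus strand), was at 22.2, 14.8, 11.2, 5.73 and 10.4 TPM in OKS + DsRed. With FoxO6 added it was at 20.1, 5.46, 3.17, 4.98 and 3.76 TPM. The arms were close at days 0 and 5, and OKS + FoxO6 was lower at days 1, 3 and 7. On those days the read ratio was 0.363 (0.190 to 0.663), 0.279 (0.126 to 0.576) and 0.398 (0.188 to 0.782). The fitted log2 difference was -0.96 ± 0.28, with an SD of 0.65 over the days.

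Tnfrsf1b, the TNF receptor without a death domain (chr4:145213463-145246870, minus strand), was at 3.71, 5.28, 13.8, 17.5 and 18.6 TPM in OKS + DsRed. In OKS + FoxO6 it was at 5.55, 6.47, 4.1, 8.67 and 11 TPM. The intervals of the ratio held 1 at days 0 and 1, and the later OKS + DsRed libraries were the highest of all. The read ratio was 0.307 (0.156 to 0.575) at day 3, 0.477 (0.295 to 0.764) at day 5 and 0.649 (0.423 to 0.982) at day 7. Over the 5 days, the fitted log2 difference over all days was -0.63 ± 0.30.

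Macrophages are a known site of Tnfrsf1b expression, and a list of 7 macrophage markers summed to 12.6 to 90.3 TPM in OKS + DsRed and 27.4 to 52.5 TPM in OKS + FoxO6. Laptm5, a lysosomal membrane protein gene of blood cells, was at 4.62, 27.5, 34.0, 69.9 and 41.2 TPM in OKS + DsRed and at 2.77, 7.04, 10.1, 27.6 and 30.4 TPM in OKS + FoxO6. It was 1 of the 2 macrophage markers with enough reads for the test over the 5 days and passed as lower (log2 difference -1.11 ± 0.26, adjusted p = 0.0168), but not without day 1 (0.0544), day 3 (0.0891), day 5 (0.102) or the day term (0.562). The other tested marker, Cd68, did not pass (-0.51 ± 0.33, adjusted p = 0.364), and it was higher in OKS + FoxO6 at day 0 (23.4 against 7.95 TPM) and day 5 (24.4 against 20.1 TPM). The defining markers Ptprc, Adgre1, Csf1r, Tyrobp and Fcer1g had at most 3 reads in any library, and 2 of the 7 markers, Tyrobp and Fcer1g, were at 0 in every OKS + FoxO6 library. A list of 5 endothelial markers summed to 0.93 to 19.3 TPM in OKS + DsRed and 0.58 to 10.8 TPM in OKS + FoxO6. The part of such cells in the Tnfrsf1b difference was not tested.

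Tnfrsf12a, which encodes Fn14, the receptor of TWEAK (chr17:23675445-23677468, minus strand), had the highest single level of the 10 receptors. It was at 371, 84.9, 45.6, 35.6 and 38.8 TPM in OKS + DsRed and at 354, 105, 65.0, 37.3 and 61.9 TPM in OKS + FoxO6. The drop between day 0 and day 1 was seen in both arms, and the arms overlapped. The read ratio left out 1 only at day 7, at 1.75 (1.11 to 2.80). Its fitted log2 difference was 0.23 ± 0.18.

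Tnfrsf11b, which encodes osteoprotegerin, a secreted decoy for RANKL that can also bind TRAIL (chr15:54250619-54278484, minus strand), was at 120.2, 58.5, 13.4, 4.77 and 3.73 TPM in OKS + DsRed. With FoxO6 added it was at 165, 62.7, 30.5, 12.5 and 5.27 TPM. The level was lower on each later day in both arms. The read ratio was 1.24 (1.05 to 1.46) at day 0, 1.06 (0.823 to 1.36) at day 1, 2.24 (1.43 to 3.60) at day 3, 2.53 (1.19 to 5.98) at day 5 and 1.55 (0.628 to 3.95) at day 7. The fitted log2 difference was 0.55 ± 0.20, a 1.47-fold difference. The transcript of its ligand, Tnfsf11, was at 2.14 to 20.1 TPM in OKS + DsRed and 1.12 to 10.8 TPM in OKS + FoxO6, and did not pass the test (log2 difference -0.95 ± 0.40, adjusted p = 0.142).

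Between day 0 and day 7, more of the receptors were lower than higher in both arms. In OKS + DsRed, 1 of 10 was at least 2-fold higher at day 7 (Tnfrsf1b, 5.02-fold; 20.9% of all genes), and 4 were at least 2-fold lower (Tnfrsf23, Tnfrsf12a, Tnfrsf11b and Tnfrsf21; 11.4%). In OKS + FoxO6, none was at least 2-fold higher (14.4%) and 6 were at least 2-fold lower (Tnfrsf22, Tnfrsf23, Tnfrsf26, Tnfrsf12a, Tnfrsf11b and Tnfrsf21; 16.9%). Tnfrsf11b was 32.2-fold lower in OKS + DsRed and 31.2-fold lower in OKS + FoxO6, and Tnfrsf12a was 9.55-fold and 5.73-fold lower. Tnfrsf22 just missed the count in OKS + DsRed, where its TPM was 2.01-fold lower and its difference on the log2(TPM + 1) scale was -0.96.

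In the fit over the 5 days, edgeR's quasi-likelihood test with Benjamini-Hochberg adjustment called 761 of 10977 genes higher (6.93%) and 783 lower (7.13%) in OKS + FoxO6. The median fitted log2 difference was 0.34 for the 10 receptors and -0.02 for all genes tested. As the receptors were chosen with their differences known, the medians are given for scale alone.

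**Figure D4:**
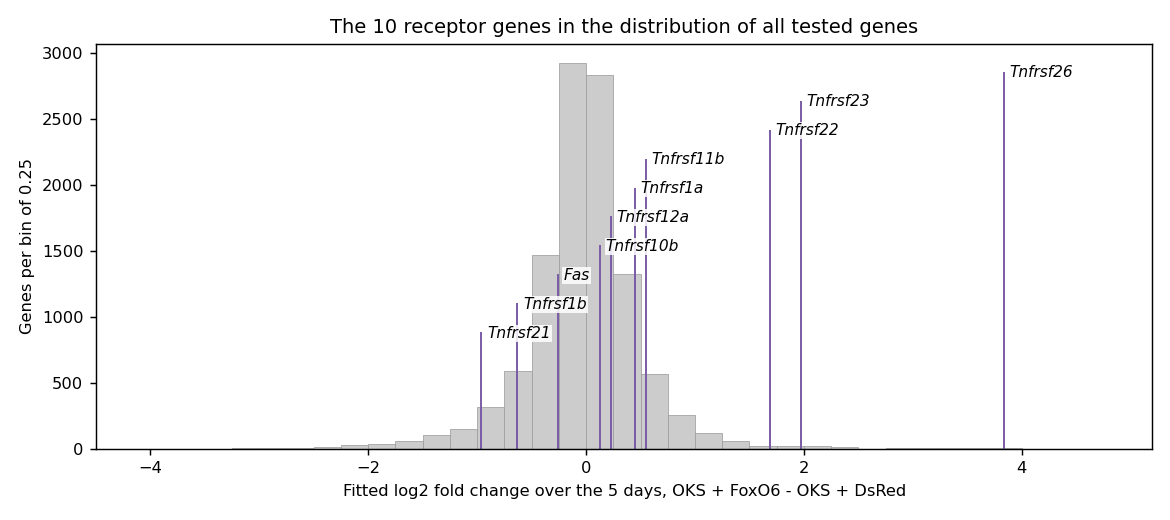
Number of genes per bin of 0.25 (grey bars) by fitted log2 fold change over the 5 days, OKS + FoxO6 minus OKS + DsRed, for the 10977 tested genes, with a purple line at the value of each receptor gene. Line heights only space the names. Tnfrsf22, Tnfrsf23 and Tnfrsf26 stood in the right tail at 1.69, 1.97 and 3.84, and the other 7 lay between -0.96 and 0.55. The receptors were chosen with their arm differences known, so their places are a description.

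Of the other genes of the pathway, 97 were listed, 59 were tested, and 4 passed as higher and 4 as lower in OKS + FoxO6, with a median log2 difference of 0.04. Both counts lay near the share of all tested genes, of which 6.93% passed as higher and 7.13% as lower. The counts of the single lists below stand against the same shares. Among 19 ligands, 4 were tested and none passed in edgeR at an adjusted p of 0.05 or in DESeq2, while 1 was lower at an unadjusted p under 0.05. The most abundant ligand was Tnfsf9, the 4-1BB ligand gene, with a mean of 42.1 TPM (log2 difference -0.24 ± 0.24, adjusted p = 0.567). The TWEAK gene Tnfsf12 had a mean of 21.6 TPM (0.09 ± 0.24, adjusted p = 0.862). Tnf and Fasl had at most 2 reads in any library.

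Among 18 other receptors, 5 were tested, and Ltbr was higher and Ngfr lower. Ltbr, the lymphotoxin beta receptor gene and the most abundant of this list, was at 69.2 to 128 TPM in OKS + DsRed and 128 to 178 TPM in OKS + FoxO6 (log2 difference 0.73 ± 0.15, adjusted p = 0.00859). Ngfr, the low-affinity neurotrophin receptor gene, was at 10.5, 41.8, 45.8, 38.0 and 28.9 TPM in OKS + DsRed and at 3.75, 7.55, 9.4, 20.1 and 20.5 TPM in OKS + FoxO6 (-1.48 ± 0.29, adjusted p = 0.00756). Ngfr was lower in OKS + FoxO6 on every day. Both calls were lost without the day term (adjusted p = 0.149 and 0.176) and kept in the other alternatives.

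All 20 genes of death signalling, which covers adaptors, caspases, Bcl-2 family effectors and inhibitors of apoptosis, were tested, and 1 passed in each direction with a median of 0.10. Ripk3, a kinase of necroptosis, was at 86.4 to 173 TPM in OKS + DsRed and 133 to 213 TPM in OKS + FoxO6 (0.45 ± 0.13, adjusted p = 0.0446). It lay near the threshold and failed it in 7 of 9 alternative fits, with an adjusted p of up to 0.286.

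The most abundant gene of that list was Bax, a pore-forming effector of apoptosis, with a mean of 334 TPM (0.29 ± 0.18, adjusted p = 0.336). The adaptor gene Fadd (0.09 ± 0.18, adjusted p = 0.80), the initiator caspase gene Casp8 (0.09 ± 0.22, adjusted p = 0.844) and Cflar, which encodes the caspase-8 inhibitor FLIP (0.23 ± 0.12, adjusted p = 0.245), did not pass. Of 22 genes of TRAF and NF-kB signalling, 19 were tested and none passed in edgeR or DESeq2 (median 0.02), with 1 higher and 1 lower at an unadjusted p under 0.05. Their most abundant gene was Rbck1, a subunit of the linear ubiquitin ligase, with a mean of 126 TPM (0.04 ± 0.14, adjusted p = 0.887).

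Among 18 targets of NF-kB, 11 were tested, with 2 higher, 2 lower and a median of 0.12. Ccl2, a monocyte chemokine gene, was at 71.7, 59.7, 122, 179 and 168 TPM in OKS + DsRed and at 36.4, 17.8, 30.4, 41.6 and 72.7 TPM in OKS + FoxO6 (-1.63 ± 0.21, adjusted p = 0.000752). Tnfaip3, which encodes the NF-kB inhibitor A20, was at 3.85 to 12.5 TPM and at 2.28 to 3.94 TPM (-1.33 ± 0.26, adjusted p = 0.00705). Both were lower in OKS + FoxO6 on every day.

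Sod2, a mitochondrial superoxide dismutase gene, was higher in OKS + FoxO6 (0.54 ± 0.12, adjusted p = 0.0138), as was Csf1, the macrophage colony-stimulating factor gene (0.48 ± 0.13, adjusted p = 0.0292). Without the day term all 4 calls were lost, with adjusted p of 0.0902 for Ccl2, 0.13 for Tnfaip3, 0.281 for Sod2 and 0.445 for Csf1. Without day 5, Tnfaip3 (0.0564), Sod2 (0.0617) and Csf1 (0.102) missed the threshold, as did Sod2 (0.0715) and Csf1 (0.0841) without day 3 and Csf1 without day 0 (0.0638) and in DESeq2 (0.0577). The most abundant target was Vcam1, a cell adhesion gene, with a mean of 84.3 TPM (-0.57 ± 0.18, adjusted p = 0.0612).

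To see whether the difference at the chromosome 7 cluster extended along the chromosome, the genes whose start lies within 300 kb of the cluster were compared. The files held 24 of them, 9 had a mean of at least 1 TPM, and 7 were tested, of which none passed as higher and 1 as lower in edgeR and in DESeq2. At an unadjusted p under 0.05, 1 was higher. With 6.93% of all tested genes called higher and 7.13% called lower, 7 neighbours are too few to tell whether the difference extended. On the side of Tnfrsf26, Cars, a cysteinyl-tRNA synthetase gene, was at 0.25 ± 0.13 (log2 difference, adjusted p = 0.228), Nap1l4, a nucleosome assembly gene, at -0.13 ± 0.12 (adjusted p = 0.56), and the cell cycle inhibitor gene Cdkn1c at 0.65 ± 0.27 (adjusted p = 0.139). By day, Cdkn1c was at 16.95, 17.03, 10.42, 6.61 and 6.75 TPM in OKS + DsRed. In OKS + FoxO6 it was at 48.25, 15.98, 15.6, 16.39 and 19.69 TPM. On the side of Tnfrsf23, Osbpl5, a lipid transfer protein gene, was at 0.31 ± 0.14 (adjusted p = 0.188), Mrgpre at 0.11 ± 0.35 (adjusted p = 0.883) and Nadsyn1, an NAD synthetase gene, at -0.54 ± 0.36 (adjusted p = 0.384).

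The neighbour that passed was Dhcr7, an enzyme of cholesterol synthesis whose start lies 174 kb from that of Tnfrsf22 (-0.89 ± 0.15, adjusted p = 0.0030, and 0.0757 without the day term). Slc22a18 and Phlda2, both above a mean of 1 TPM, had too few reads to be tested. The antisense gene E230032D23Rik overlaps the cluster on the plus strand, and whether counting used strand is not given in the sources used here. It had at most 2 reads in any library.

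**Figure D5:**
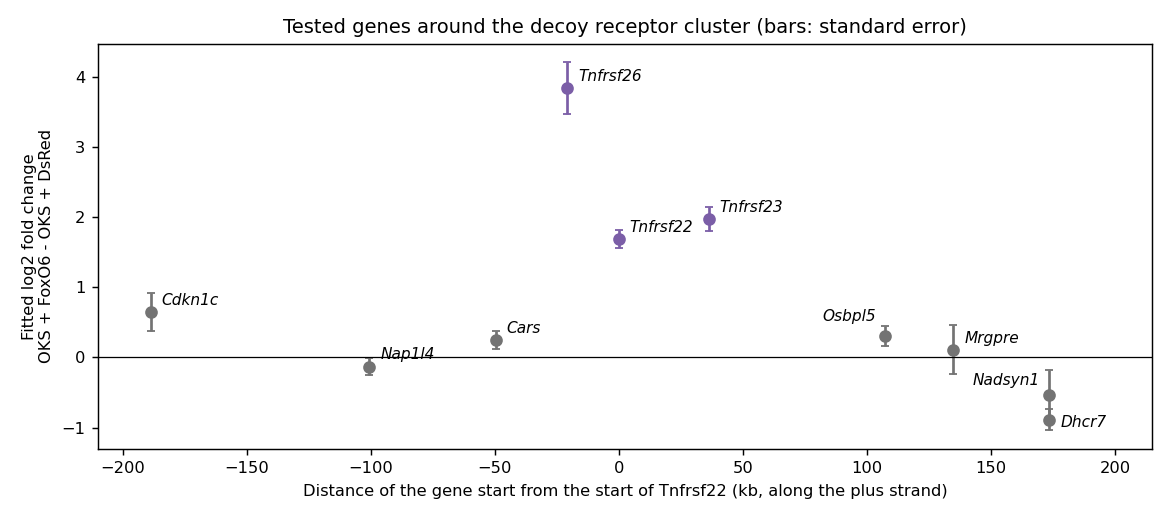
Fitted log2 fold change over the 5 days (vertical axis, OKS + FoxO6 minus OKS + DsRed, bars for the standard error) of the tested genes around the cluster, against the distance of the gene start from that of Tnfrsf22 in kb. The 3 cluster genes (purple) stood between 1.69 and 3.84, and the 7 neighbours (grey) between -0.89 and 0.65.

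A promoter window was given by RefSeq (build GRCm38.p6) for 6 of the 10 receptors, namely Fas, Tnfrsf12a, Tnfrsf1a, Tnfrsf1b, Tnfrsf21 and Tnfrsf23. FoxO proteins bind the forkhead motif, so the windows of 300 bases around the start were searched on both strands for TGTTTAC and for its variant TATTTAC, which differ at the second base and cannot match at the same place. Neither was found in the 6 windows, while 3.65% of 32817 promoters of the same length held the first and 3.04% the second. The letters are a description of these windows only. The upstream bases of Tnfrsf23, the cluster gene with a window, are shown in full at chr7:143685876-143686125 (minus strand, 5′ to 3′) with no capitals because no motif was found.
Tnfrsf23: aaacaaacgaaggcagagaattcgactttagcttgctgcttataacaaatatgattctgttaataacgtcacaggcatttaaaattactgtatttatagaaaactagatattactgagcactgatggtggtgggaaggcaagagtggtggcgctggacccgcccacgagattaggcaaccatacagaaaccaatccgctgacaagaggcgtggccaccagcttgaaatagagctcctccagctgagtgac

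The genes with the most similar course were sought among 9806 genes of mean TPM of at least 10, by Pearson's r of log2(TPM + 1) over the 10 libraries, which share arm, day and depth, so that r is a description. Tnfrsf22 was most like Grk5 (r = 0.964), Stat6 (0.956) and Shc2 (0.953). Tnfrsf23 was most like Pttg1ip (0.992), Plekhh2 (0.987) and Zwint (0.984). The leading genes of these close paralogs were not the same ones, but their TPM values rest on the uncertain split of shared reads and on assigned lengths.

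Genes most like Tnfrsf12a included Cnn2 (0.98), a calponin gene, and Acta2 (0.979), the smooth muscle actin gene. Tnfrsf11b was most like the integrin gene Itgb1 (0.995), Basp1 (0.988) and Pls3 (0.987). Tnfrsf10b was most like the collagen gene Col1a2 (0.968), Akr1c18 (0.953) and Bfar (0.947), and Tnfrsf1a most like the basement membrane gene Nid1 (0.982), Cpe (0.982) and Gpr137b (0.976). Tnfrsf21 was most like Tcaf2 (0.963), Phlda1 (0.958) and Fbln2 (0.944). Fas, with few reads, had lower values, for Zfp629 (0.887), Stk38l (0.872) and Foxj2 (0.865).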

How the data were processed

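mRNA libraries were sequenced from 10 MEF samples. The authors aligned reads with Bowtie2 and RSEM (versions not given in the sources used here) to the GENCODE M13 transcriptome (mm10). The expected counts deposited are RSEM estimates with no normalization, and the TPM values deposited by the authors are scaled by RSEM's isoform-weighted gene length. The series table held the expected counts of 48476 of the 50600 genes with values identical to the library files. Rows of both were joined by Ensembl ID, and 50376 IDs matched GENCODE M21 (GRCm38), from which positions and coding sequences were taken.

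Expected counts were rounded and fitted with edgeR 4.0.16 (R 4.3.3) by the quasi-likelihood method with arm and day as terms, TMM factors and filterByExpr by arm (10977 genes, common dispersion 0.0336). DESeq2 1.42.0 was an alternative. The fit was tested on simulated data. Single-day and day 0 to day 7 differences used log2(TPM + 1) with a 2-fold threshold and no test, since each group held 1 library, and this scale understates the change of low genes. The receptors and gene lists were chosen with earlier results of these data known. Genes named were all receptors, called list genes (up to 4 per direction) with the most abundant gene of a list, neighbours within 300 kb, the 3 most similar genes of each receptor of mean TPM of at least 10, and Foxo6. Tnfsf10, Tnfsf11, Tnfsf12, Tnf, Fasl, Fadd, Casp8, Cflar, the low macrophage markers and E230032D23Rik were named as partners of the receptors or for their overlap, after their values were seen. A few items that these rules select, among genes and sequences, are not reported here.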

Additional observations from a re-analysis of the deposited data

How the results depend on the processing

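The number of receptors at least 2-fold different kept within 1.5 times its value on each day under a pseudocount of 0.1, CPM in place of TPM and a floor of 10 reads, except that 2 in place of 1 were lower at day 5 with the pseudocount of 0.1 and with CPM. Of 78 fitted values of the receptors under alternative fits, 77 kept their sign within the spread over days and 1 reversed, that of Tnfrsf10b, which was -0.03 without day 7 and ranged up to 0.23 with another day left out. Fas did not pass the filter without day 3 or day 5 and has no value there. Counts over all genes moved more. Genes called higher numbered 1148 with no filter and 124 with no day term, and from 366 to 812 with 1 day left out. Genes called lower numbered 44 with no day term and from 297 to 813 with 1 day left out. Other pathway genes called higher were 2 by DESeq2, 0 with no day term, and 1 to 3 with 1 day left out, and those called lower were 0 with no day term and 3 to 5 with 1 day left out. Leaving out a day removes 2 of 10 libraries, and removing the day term puts the course into the spread. The fit with day as a term already pairs the arms by day, and no replicate numbers were there to pair further. At these library totals, Tnfrsf26 in OKS + DsRed and Fas rested on few reads.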
